A study of Homo sapiens with 6 samples.

Results

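In each of 6 CUT&Tag peak lists from HepG2 cells, the peaks lying outside the numbered chromosomes, X and Y were collected. These are peaks on the mitochondrial genome (MT) and on sequences that the human assembly holds apart from its chromosomes. They numbered 1317 of 27419 peaks and were taken by sequence name alone, with no use of their values. Peaks sharing at least 1 bp were merged over the libraries into 371 regions on 90 sequences, against 13626 merged regions on the 24 chromosomes. Of the 90 sequences, 32 are unlocalised, meaning that their chromosome is known but not their place on it, and held 626 peaks. A further 57 are unplaced on any chromosome and held 658 peaks, and the other is MT, with 33 peaks.

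HepG2 is an established human liver cancer line. CUT&Tag directs a transposase to an antibody bound in permeabilised cells, so that the DNA beside the antibody is cut and sequenced. The study used antibodies to ENO1, to H4K12la and to HDAC1, with 2 libraries (replicates 1 and 2) for each, and all cells were of the same line with no treatment named in the labels. It asked how ENO1 and HDAC1 bear on histone lactylation and gene transcription. ENO1 is enolase, an enzyme of glycolysis. H4K12la is lactylation of lysine 12 of histone H4, and HDAC1 is a histone deacetylase. Nothing in the labels ties the replicates to different cultures, so p-values measure only the spread between these libraries, which may be technical. No control library was analysed here.

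Mitochondrial DNA is a small circle with no histones, present in many copies per cell. It carries genes for 2 rRNAs, 22 tRNAs and 13 proteins of the respiratory chain, and its non-coding control region holds the start sites of transcription and an origin of replication. The sequences held apart from the chromosomes are largely repeats, such as satellite arrays and ribosomal DNA, which the assembly shows in fewer copies than the cell has. Reads from many copies can stack on one reference copy.

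The number of peaks outside the chromosomes was nearly the same in every library. It was 226 and 206 in the ENO1 libraries, 193 and 205 in the H4K12la libraries, and 252 and 235 in the HDAC1 libraries. On the chromosomes the same libraries had 1592, 1189, 5459, 7568, 5727 and 4567 peaks. The 6 counts outside the chromosomes thus spanned a narrow range beside those on them.

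As a share of a library's peaks, the off-chromosome peaks came to 12.4% (95% Wilson interval 10.99 to 14.03) in ENO1 replicate 1 and 14.8% (13 to 16.7) in ENO1 replicate 2. In H4K12la they came to 3.41% (2.97 to 3.92) and 2.64% (2.30 to 3.02), and in HDAC1 to 4.21% (3.73 to 4.75) and 4.89% (4.32 to 5.54). The intervals cover counting error only. Both ENO1 libraries lay above all 4 others. The mean share was 13.6% ± 1.65 (SD, n = 2) for ENO1, 3.03% ± 0.55 for H4K12la and 4.55% ± 0.48 for HDAC1. ENO1 exceeded the other 4 libraries by 9.81 percentage points (exact two-sided permutation p = 0.0667, the smallest that 15 assignments of libraries can give). With the 1395 strongest peaks of each list the difference was 4.41 points, at the same exact p. In numbers of peaks, ENO1 had 216 ± 14.1 (SD, n = 2) outside the chromosomes, H4K12la 199 ± 8.49 and HDAC1 244 ± 12.02. The higher ENO1 share therefore came with a shorter list on the chromosomes. Outside them both ENO1 libraries had more peaks than both H4K12la libraries and fewer than both HDAC1 libraries. ENO1 replicate 2, at 206, was nearly level with H4K12la replicate 2, at 205. Counted in covered base pairs, the shares were 15.9% and 18.4% in ENO1, 4.34% and 3.23% in H4K12la, and 5.74% and 7.46% in HDAC1. That difference, 11.9 points, was also at the smallest possible p (exact two-sided permutation p = 0.0667), but with equal list lengths it was 5.53 points and no longer at it (exact two-sided permutation p = 0.133).

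**Figure D1:**
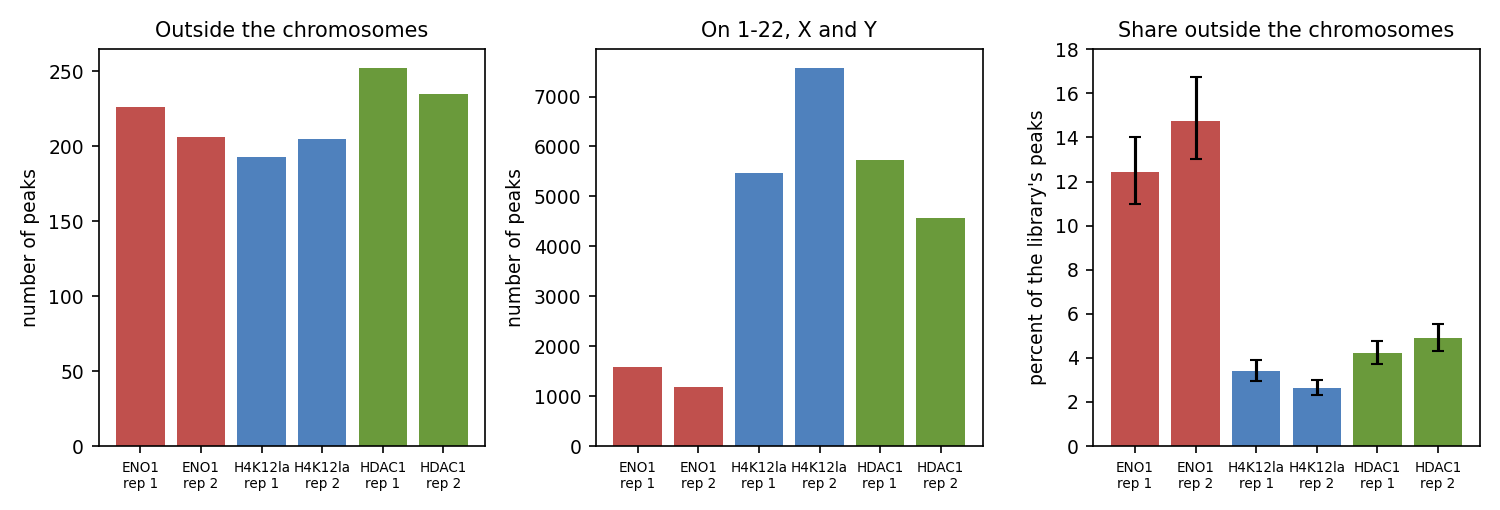
Number of peaks outside the chromosomes (left), number on chromosomes 1-22, X and Y (middle), and the first as a percent of all peaks of the library with its 95% Wilson interval (right), 1 bar per library. The left bars span 193 to 252 peaks while the middle bars span 1189 to 7568, and the shares of both ENO1 libraries stand above the other 4.

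A large part of the regions was common to the 3 antibodies. Of the 371 regions, 117 (31.5%) had a peak in all 6 libraries, against 3.14% of the regions on the chromosomes. Regions with a peak in at least 1 library of each target made up 44.7%, against 6.27% on the chromosomes. These shares are capped by the regions with an ENO1 peak, 265 of 371 outside and 1984 of 13626 on the chromosomes. How far the shorter ENO1 lists on the chromosomes account for the gap was not tested. Regions seen in 1 library made up 29.9% (111 regions), against 52% on the chromosomes.

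Within each target, the share of regions found in both replicates was also higher than on the chromosomes. Among regions with an ENO1 peak, 156 of 265 (58.9%) had one in both replicates, against 38.7% on the chromosomes. The counts were 155 of 233 (66.5%) for H4K12la, against 38%, and 196 of 285 (68.8%) for HDAC1, against 43.2%. By peaks, 157 of the 206 in the shorter ENO1 list (76.2%) met a peak of its replicate, as did 159 of 193 for H4K12la (82.4%) and 199 of 235 for HDAC1 (84.7%). On the chromosomes these shares were 64.6%, 65.5% and 67.9%. All 3 targets moved the same way, with a mean difference of 15.1 points (exact two-sided sign-flip permutation p = 0.25, the smallest that 3 targets allow).

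Outside the chromosomes, libraries of different antibodies were nearly as alike as replicates. The Jaccard index of a pair of libraries is the base pairs covered in both divided by those covered in either. Outside the chromosomes the replicate pairs had indices of 0.600 (ENO1), 0.632 (H4K12la) and 0.686 (HDAC1), a mean of 0.639. The 12 pairs of different targets ranged from 0.509 to 0.663, with a mean of 0.575 (exact one-sided permutation over the 15 ways to pair 6 libraries, p = 0.0667, the smallest possible). On the chromosomes the replicate pairs had a mean of 0.373 and the pairs of different targets a mean of 0.152, ranging from 0.0732 to 0.212. Each of the 12 pairs of different targets was more alike outside the chromosomes than any of them was on the chromosomes. These pairs share libraries, and that difference was not tested. The ENO1 libraries covered 815485 and 738307 bp on the chromosomes, against 2344145 to 4716816 bp in the others. Outside the chromosomes all 6 libraries covered 152007 to 198462 bp. An index cannot exceed the smaller coverage divided by the larger, so pairs of ENO1 with another target had a lower ceiling on the chromosomes. ENO1 replicate 2 was closer to HDAC1 replicate 2 (0.663) and to HDAC1 replicate 1 (0.614) than to ENO1 replicate 1 (0.600).

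**Figure D2:**
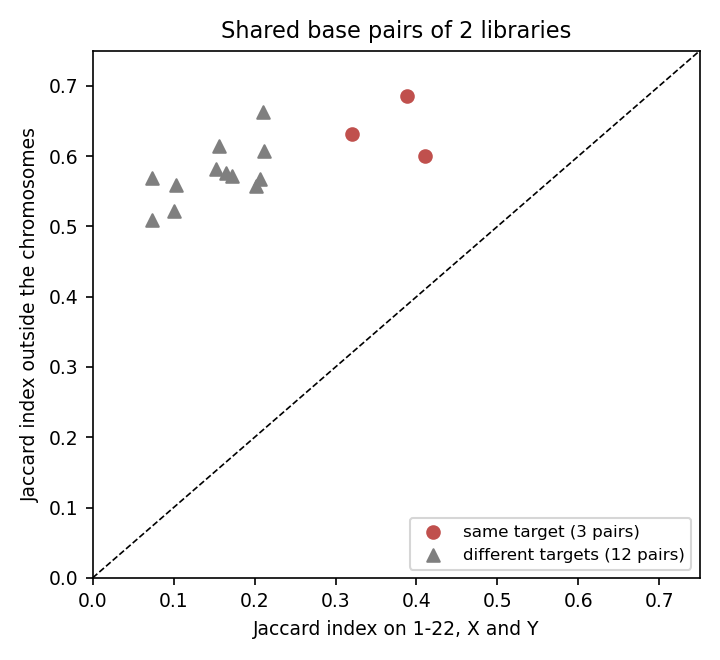
Jaccard index of covered base pairs for each of the 15 pairs of libraries, on the chromosomes (horizontal axis) against outside them (vertical axis); circles are replicate pairs of 1 target, triangles pairs of different targets, and the dashed line marks equality. All 15 pairs lie above the line, and the triangles, between 0.509 and 0.663 on the vertical axis, reach into the range of the circles.

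Few regions set targets apart. A single region, KI270756.1:43121-43602, had peaks in both ENO1 libraries (6.04-fold and 6.29-fold) and in no other. The fold enrichment is the authors' value for each peak, the summit signal divided by the peak caller's local background in that library. A constant is added to both before the division, and the fold is not scaled between libraries. Such regions made up 0.270% of the 371 for ENO1, against 0.205% on the chromosomes. H4K12la had 5 of its own (1.35%, against 11.8%) and HDAC1 had 8 (2.16%, against 6.22%). The ENO1 share is thus near that of the chromosomes. The strongest for H4K12la was GL000205.2:184999-185534, at 12.1-fold and 10.3-fold, on a sequence assigned to chromosome 17. The others for H4K12la were GL000195.1:79858-80927 (3.9-fold and 3.67-fold), GL000195.1:68180-68819 (3.46-fold in both), KI270713.1:3702-4495 (3.0-fold and 3.24-fold) and GL000220.1:122574-122950 (1.91-fold and 2.24-fold). For HDAC1 the strongest were KI270731.1:109463-109923 (4.42-fold and 4.86-fold) and GL000195.1:39897-40280 (4.31-fold and 4.23-fold). The other 6 HDAC1 regions lay on KI270442.1, KI270736.1, GL000216.2, KI270709.1 and GL000225.1. The absence of a peak from a list is not the absence of signal.

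Pairs of targets were somewhat more frequent. In 13 regions both ENO1 and both HDAC1 libraries had a peak and neither H4K12la library did. The strongest by the lower ENO1 fold was KI270322.1:8430-8813, at 7.77-fold and 6.54-fold in ENO1 and 7.36-fold and 6.89-fold in HDAC1. KI270729.1:279967-280569 reached 12.3-fold in ENO1 replicate 1 and 10.1-fold in HDAC1 replicate 1, with 5.42-fold and 6.08-fold in the other replicates. Of these 13 regions, 2 were mitochondrial. In 8 regions both H4K12la and both HDAC1 libraries had a peak and neither ENO1 library did. They included GL000195.1:86235-86813 (5.35-fold and 6.13-fold in H4K12la, 6.30-fold and 6.91-fold in HDAC1) and GL000219.1:98647-100346 (5.67-fold and 5.24-fold, then 4.75-fold and 4.54-fold). On the chromosomes the first pattern made up 0.536% of regions and the second 5.41%, against 3.50% and 2.16% outside them. The order of the 2 patterns was thus opposite in the 2 sets of regions. On the chromosomes the ENO1 lists were the shortest, at 1592 and 1189 peaks against 4567 to 7568 in the others. Outside them the lists held 193 to 252 peaks. The part of list length in the order of the patterns was not tested.

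The 3 leading sequences carried 426 of the 1317 peaks (32.3%), between 29.8% and 33.6% in each library. GL000225.1, assigned to chromosome 14, had 39, 33, 31, 33, 41 and 40 peaks in the order ENO1, H4K12la, HDAC1 with replicate 1 before 2. KI270736.1, assigned to chromosome 22, had 19, 20, 13, 14, 22 and 20. GL000216.2, unplaced, had 17, 16, 16, 14, 19 and 19. H4K12la was the lowest target on KI270736.1, where its 2 counts did not overlap those of the other targets. The same held for all off-chromosome peaks together, at 193 and 205 in H4K12la against 206 to 252 in the other libraries.

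Their peaks were moderate in fold. Over all libraries the median was 3.79-fold on GL000225.1, 5.38-fold on KI270736.1 and 5.64-fold on GL000216.2. Of their merged regions, 23 of 44, 10 of 27 and 12 of 20 had a peak in all 6 libraries. The strongest of these on GL000216.2, at 79710-80523, reached 16.7-fold and 13.9-fold in ENO1, 12.9-fold and 12.7-fold in H4K12la, and 12.9-fold and 14.8-fold in HDAC1.

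Of the 90 sequences, 52 had peaks in all 6 libraries and 14 in a single one. The next sequences by peaks were GL000220.1 (42 peaks), KI270744.1 (41), KI270729.1 (40), KI270442.1 (37), KI270438.1 (35), MT (33), and GL000224.1 and KI270733.1 (31 each). A few sequences differed by target. GL000195.1 had 1 and 1 peaks in ENO1, 7 and 9 in H4K12la, and 5 and 5 in HDAC1. KI270721.1, assigned to chromosome 11, had none in ENO1, 2 and 5 in H4K12la, and 2 and 1 in HDAC1. In the other direction, KI270322.1, GL000208.1, KI270716.1 and KI270311.1 had peaks in all ENO1 and HDAC1 libraries and in neither H4K12la library. KI270538.1 had 3 and 3 in ENO1, 4 in HDAC1 replicate 1, and none in the other 3 libraries. GL000195.1, KI270721.1, KI270538.1 and these 4 sequences were named after their counts had been seen.

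**Figure D3:**
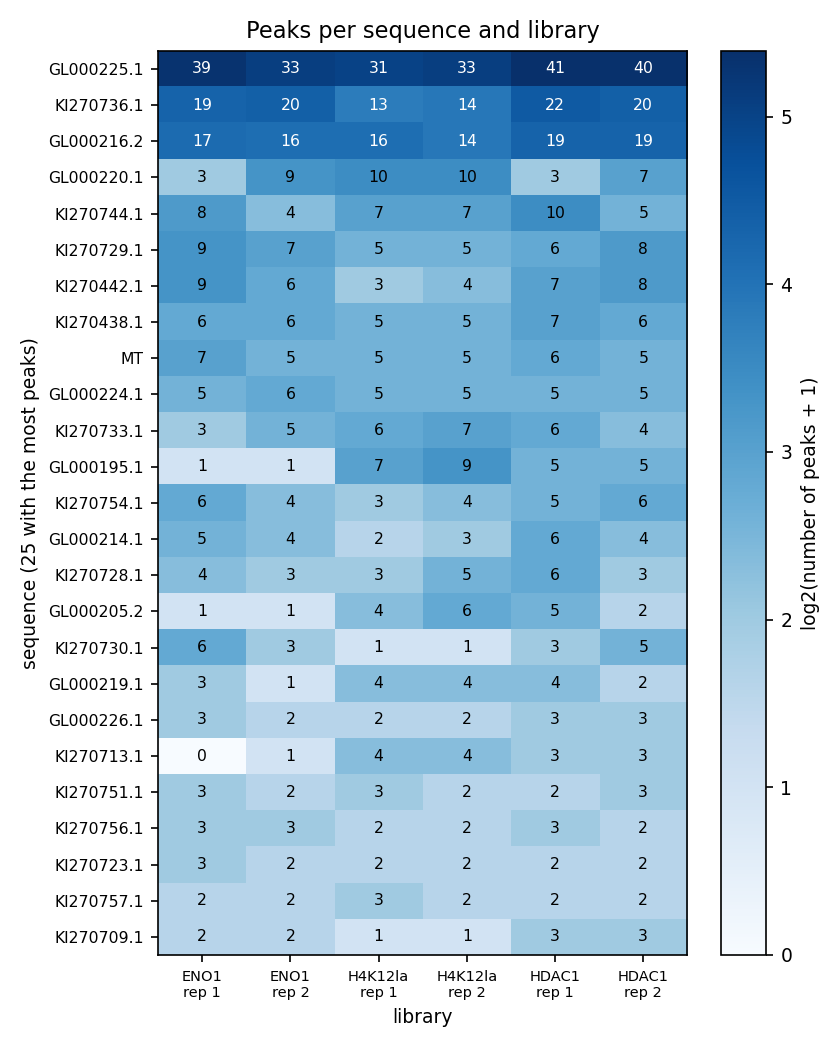
Number of peaks on each of the 25 sequences with the most peaks (rows) in each library (columns); the colour is log2 of the number plus 1 and the number is printed in each cell. The 3 top rows hold 13 to 41 peaks in every library, and GL000195.1 shows 1 peak in each ENO1 library beside 5 to 9 in the others.

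The strongest regions outside the chromosomes were nearly the same for every antibody. Ranked by the lower fold of a target's replicates, 9 regions stood in the top 10 of all 3 targets, and 10 of the 11 regions in any top 10 had a peak in all 6 libraries. First in each list was KI270729.1:27481-28075, on a sequence assigned to chromosome 17. Its fold was 27.2 and 21.1 in ENO1, 22.1 and 23.9 in H4K12la, and 24.7 and 26.1 in HDAC1. These were the highest off-chromosome folds of their libraries, and the highest on the chromosomes ranged from 25.9 to 33.5.

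Several of the others began near the first base of an unplaced sequence. KI270310.1:92-1129 had 24.9-fold and 20.3-fold in ENO1, 20.5-fold in both H4K12la libraries, and 22.9-fold and 24.8-fold in HDAC1. KI270303.1:255-1758 ran from 18.8-fold to 23.3-fold over the libraries and KI270337.1:20-1093 from 16.99-fold to 21.7-fold. The lengths of these sequences were not used, and the part of their ends in the local background was not tested. KI270734.1:121386-121897, assigned to chromosome 22, had 22.3-fold and 19.5-fold in ENO1, 18.8-fold and 20.02-fold in H4K12la, and 20.6-fold and 21.1-fold in HDAC1. ENO1 overlapped both other targets in fold at this region. KI270442.1:9-353 was the exception in the top 10 lists, with 19.8-fold in ENO1 replicate 1, 17.3-fold and 20.6-fold in HDAC1, and no peak in the other 3 libraries.

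The median fold was lower outside the chromosomes than on them in ENO1 and higher in the other targets, and over the 6 libraries no difference passed the test. The median fold outside against on the chromosomes was 5.33 against 5.76 and 5.08 against 5.78 in ENO1. It was 4.53 against 4.01 and 4.63 against 4.04 in H4K12la, and 4.76 against 4.67 and 4.95 against 4.88 in HDAC1. The differences ran from -0.696 to 0.597, with a mean of 0.0262 (exact two-sided sign-flip permutation over 6 libraries, p = 0.906, where 0.03125 is the smallest possible). ENO1 lay below 0 in both libraries and the other targets above it. The HDAC1 direction turned in both libraries with a -log10 q of at least 5 (-0.206 and -0.135) and with equal list lengths (-0.692 and -1.5), while ENO1 and H4K12la kept theirs under both settings.

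The off-chromosome peaks were wider. Median widths outside against on the chromosomes were 518.5 against 402 bp and 636.5 against 502 bp in ENO1. They were 636 against 536 bp and 616 against 543 bp in H4K12la, and 597.5 against 499 bp and 611 against 435 bp in HDAC1. They were wider in 6 of 6 libraries, by a mean of 116 bp (exact two-sided sign-flip permutation p = 0.03125, the smallest possible). With the 1395 strongest peaks of each list the mean was 109 bp and p = 0.0625 in the same exact test.

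The fold hides how much signal lay on these sequences, because both its parts were high there. The deposited fold and p value of a peak together fix how many reads or fragments stacked at its summit and the local background they were set against. The fold was read with 1 added to both, which lowers it more where the background is low. A whole number of stacked reads was found for 27419 of 27419 peaks (100%, within a relative error of 0.0001), and 3 peaks, none of them outside the chromosomes, allowed more than 1 number and were not used. The median stack outside against on the chromosomes was 74 against 21 and 78 against 26 in ENO1. It was 61 against 24 and 57 against 24 in H4K12la, and 70 against 24 and 69 against 24 in HDAC1. Stacks were higher outside in 6 of 6 libraries, by 2.38 to 3.52 times (mean log2 ratio 1.51, exact two-sided sign-flip permutation p = 0.03125, the smallest possible). The median local background was 11.6 against 2.45 and 13.7 against 3.10 in ENO1. It was 10.5 against 5.14 and 9.46 against 5.24 in H4K12la, and 11.9 against 4.23 and 11.5 against 3.92 in HDAC1. The background was thus 1.81 to 4.73 times higher outside, most in ENO1, the target whose median fold was lower there.

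To compare libraries, each stack was divided by the library's genome background, the lowest background that at least 10 of its peaks share (1.06 to 1.58 by library). In the 114 regions outside MT with a peak in all 6 libraries, the median of this height was 110 and 114 in ENO1, 56.9 and 51.1 in H4K12la, and 84.0 and 85.3 in HDAC1. The 3 antibodies did not overlap in this median. In the 428 such regions on the chromosomes it was 56.1 and 55.7, 32.8 and 33.0, and 47.4 and 50.1, in the same order of targets.

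H4K12la was the lowest of the 3 in most of these regions. Both its heights lay below both ENO1 heights in 106 of 114 regions, against 85.3% on the chromosomes, and below both HDAC1 heights in 101 of 114, against 82.9% on the chromosomes. The median ratio of H4K12la to HDAC1 height was 0.587 outside and 0.621 on the chromosomes, so the order was common to both sets of regions. The highest region by fold, KI270729.1:27481-28075, followed it, with heights of 1571 and 1648 in ENO1, 524 and 479 in H4K12la, and 942 and 1108 in HDAC1.

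The reverse order, both H4K12la heights above both HDAC1 heights, occurred in 3 of the 114 regions, against 3.97% on the chromosomes. All 3 lay on the 2 sequences that hold ribosomal DNA, and these were the only regions there with a peak in all 6 libraries. Ribosomal DNA is a tandem repeat of a transcribed unit, from which the large ribosomal RNAs are made, and a long intergenic spacer. GL000220.1 carries the unit RNA45SN5 at 105424-118780 and KI270733.1 carries RNA45SN4 at 122273-135645, in the GRCh38 coordinates of RefSeq. The RefSeq table gives these positions without naming the sequence, so the sequence of each unit was taken from knowledge of the assembly. None of the 73 peaks on the 2 sequences overlapped these 2 units, 0 of 42 and 0 of 31. RefSeq also lists parts of a further copy past each unit, RNA18SP3 and RNA5-8SP8, 43972 bp on from the matching genes of RNA45SN5, and RNA18SP4, 45081 bp on from RNA18SN4, with RNA5-8SP9. No peak lay on these 4 listed parts. If each unit is moved by that distance, 9 of the 73 peaks fall inside its further copy. Of the others, 45 lay past the unit and outside the moved one, and 19 lay before the unit.

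At GL000220.1:119719-121248, which starts 939 bp past the unit, the heights were 74.6 and 87.8 in ENO1, 92.7 and 87.4 in H4K12la, and 44.2 and 41.6 in HDAC1. At KI270733.1:138751-139667, 3106 bp past the unit, they were 64.2 and 96.6, 76.1 and 84.7, and 54.3 and 47.1. At KI270733.1:155269-156071, 19624 bp past the unit, they were 68.9 and 109, 65.5 and 67.9, and 43.6 and 39.6. H4K12la was higher than HDAC1 by 2.10, 1.59 and 1.60 times in these regions and overlapped ENO1 in height in the first 2, while in the last both H4K12la heights lay below both ENO1 heights. These regions were picked out after their values were seen and carry no test. The folds there were modest, from 2.59 to 4.11.

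The 3 transcribed units on chromosome 21 showed the same order beside them. Of 9 regions with a peak in all 6 libraries within 45000 bp past the end of RNA45SN1, RNA45SN2 or RNA45SN3, 8 had both H4K12la heights above both HDAC1 heights, and none overlapped these 3 units. The exception, at 8259545-8260891 past RNA45SN2, overlapped LOC110467529, a listed partial copy of the large rRNA gene. They make up 8 of the 17 chromosomal regions with that order. The copies of ribosomal DNA are nearly identical, and no source used here says how reads were shared between them, so the 5 copies are not independent.

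Other regions on the 2 sequences had peaks in fewer libraries. Just before the units, GL000220.1:103379-104670 and KI270733.1:120207-121321 ended 754 bp and 952 bp from the unit's start, and each had peaks in both H4K12la libraries and in ENO1 replicate 2. Far before the units, GL000220.1:6847-7820 and KI270733.1:24051-25190 began 98577 bp and 98222 bp from the start. Both of these had peaks in all H4K12la and HDAC1 libraries and in neither ENO1 library. The folds there were 5.42 and 5.75 in H4K12la and 7.80 and 7.83 in HDAC1 on GL000220.1. On KI270733.1 they were 5.62 and 4.86 in H4K12la and 9.19 and 8.72 in HDAC1.

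**Figure D4:**
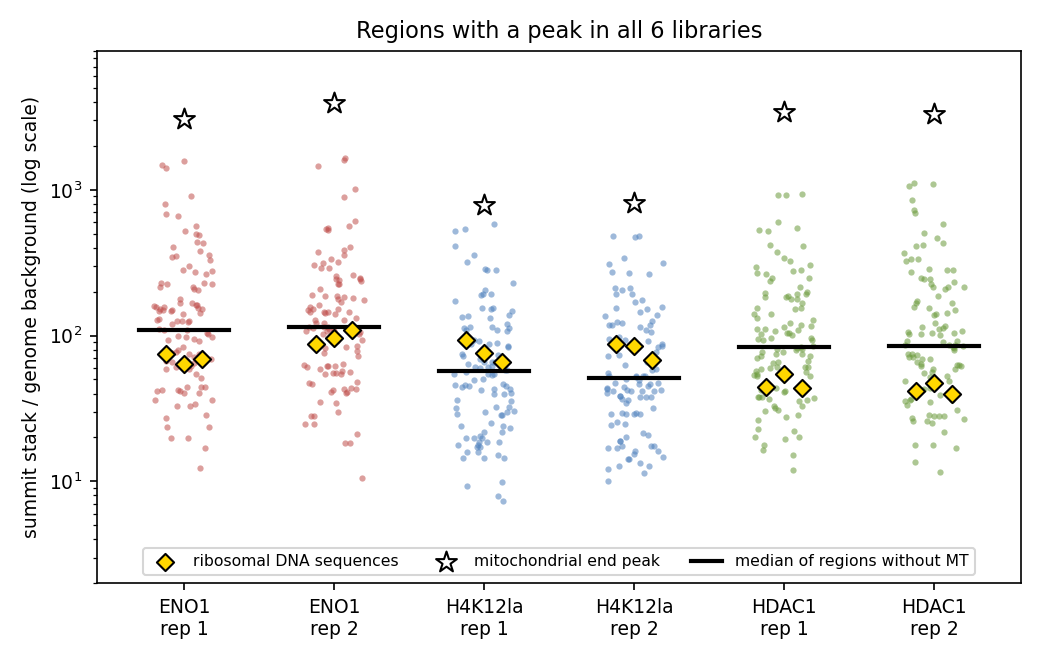
Height (summit stack divided by the library's genome background, log scale) of each region with a peak in all 6 libraries, by library; dots are single regions, bars the median of 114 regions outside MT, diamonds the 3 regions on ribosomal DNA sequences and stars the mitochondrial end peak. The diamonds lie above the median in H4K12la and below it in HDAC1, and the stars lie above every dot of their library.

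Mitochondrial peaks were found in every library, 7 and 5 in ENO1, 5 and 5 in H4K12la, and 6 and 5 in HDAC1. They merged into 5 regions. Peaks of all 6 libraries met in 3 of them, MT:21-4066, MT:8934-9607 and MT:12393-16569. The 2 others, MT:5955-7122 and MT:10690-12085, had peaks in all ENO1 and HDAC1 libraries and in neither H4K12la library. Peaks covered 62.4% and 60.5% of MT in ENO1, 39.7% to 40.1% in H4K12la, and 64.7% and 64.4% in HDAC1. H4K12la thus had the smaller coverage, with no overlap between its libraries and the other 4.

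The control region, which spans the ends of the linear sequence from 16024 to 576, was almost fully covered, as were the genes beside it (RNR1 and CYTB at 100% in each library). Of its 1122 bp, between 94.8% and 98.2% lay in a peak in each library. The peak at the end of the linear sequence had the highest mitochondrial fold in each library, 3.0 and 2.79 in ENO1, 2.59 and 2.55 in H4K12la, and 2.71 and 2.66 in HDAC1. Its summit lay in the control region in 6 of 6 libraries. It was at 16339 and 16060 in ENO1, at 16060 in both H4K12la libraries and at 16140 in both HDAC1 libraries.

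The peak at the start had 2.62-fold and 2.37-fold in ENO1, 2.31-fold and 2.39-fold in H4K12la, and 2.36-fold and 2.41-fold in HDAC1. Its summit was at 1334 in 5 libraries and at 1340 in ENO1 replicate 1, within RNR1, the gene of the small mitochondrial rRNA. The fold did not separate the antibodies at this peak. Inner peaks had 1.2-fold to 1.56-fold.

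Inner summits recurred at the same places. In ND4, a subunit gene of respiratory complex I, the summit was at 11447 in all 4 ENO1 and HDAC1 libraries. In COX3, a subunit gene of cytochrome c oxidase, it was at 9255 in the same 4 libraries. In H4K12la the corresponding summits were at 9190 and 9184, in ATP6, a subunit gene of the ATP synthase. The COX1 peaks of the ENO1 and HDAC1 libraries had summits from 6285 to 6528, at 1.26-fold to 1.45-fold.

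By gene, 14 of 37 mitochondrial genes were touched by a peak in all 6 libraries. They were both rRNA genes (RNR1 and RNR2), 6 of 22 tRNA genes and 6 of 13 protein-coding genes, namely ND1, ATP6, COX3, ND5, ND6 and CYTB. COX1 and ND4 were touched in the 4 ENO1 and HDAC1 libraries and ND4L in HDAC1 replicate 1. The other 20 genes had no peak in any library, among them 16 tRNA genes and ND2, COX2, ATP8 and ND3. The stretches without a peak in any library ran from the end of ND1 to the start of COX1, from the end of COX1 into ATP6, from COX3 into ND4L and from the end of ND4 to the start of ND5, as the map of mitochondrial peaks shows.

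**Figure D5:**
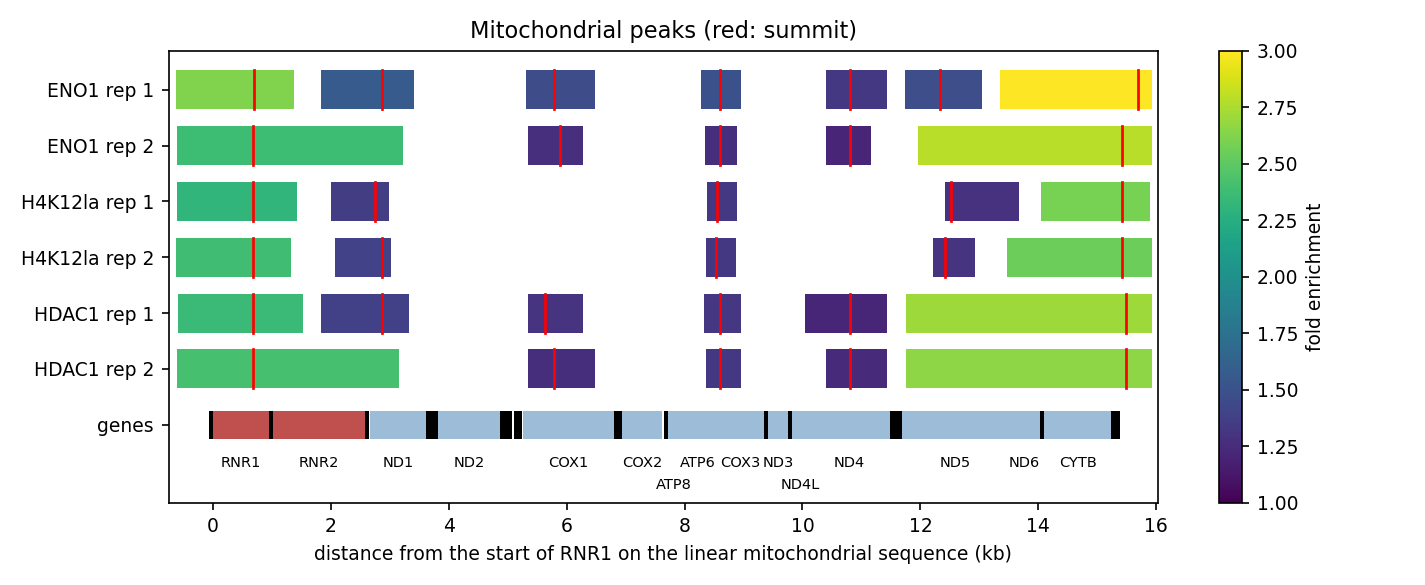
Mitochondrial peaks of each library (rows) by distance in kb from the start of RNR1 on the linear sequence, coloured by fold enrichment, with summits as red lines; in the gene row, red is rRNA, black tRNA and blue protein-coding. Peaks at both ends reach 2.31-fold to 3.0-fold in each library, and H4K12la has no peak over COX1 or ND4.

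The low folds stood beside very deep stacks. The end peak had 3259 and 4457 reads or fragments at its summit in ENO1, 1188 and 1201 in H4K12la, and 5385 and 4858 in HDAC1, and a local background of 458 to 1986. This was the highest stack of the whole list in the 4 ENO1 and HDAC1 libraries. In H4K12la it lay below the highest stack on the chromosomes, 1688 and 1622. As heights over the genome background these were 3075 and 3912, 786 and 808, and 3403 and 3313, higher than in any of the 114 other off-chromosome regions with a peak in all 6 libraries. H4K12la lay below the other 4 libraries. The ratio of H4K12la to HDAC1 height was 0.237 at the end peak and 0.246 at the start peak, below the 0.378 to 2.10 of the 114 other off-chromosome regions but within the 0.127 to 2.17 of the 428 chromosomal ones. When libraries were paired in all 15 ways, the same-target pairs were not the closest in end height (exact one-sided permutation p = 0.2, the smallest possible being 0.0667).

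The ends and the middle of MT differed more in the local background than in the stack. The stack at the end peak was 1.23 to 1.38 times the highest inner stack in each library. The background at the end peak was 0.573 to 0.642 of the highest inner background, and the fold was 1.83 to 2.20 times the highest inner fold. The highest mitochondrial background was 1789 and 2357 times the genome background in ENO1, 482 and 493 times in H4K12la, and 2119 and 2104 times in HDAC1. MT is a circle listed as a linear sequence, and the part of its cut ends in the local background was not tested.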

How the data were processed

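CUT&Tag libraries of HepG2 cells with antibodies to ENO1, H4K12la and HDAC1 (2 each) were grouped by their titles. Per the submitters' processing notes, FastQC, Bowtie2, MACS2 and deepTools were used with build hg38; versions, settings, any filter on multiply mapped reads and any control are not given there. The lists were made per library. In each, the authors' fold is a ratio of summit signal to local background, with a constant added to both. The authors also give the -log10 of each p-value and q-value and a score made from the q-value. All listed q-values lie below 0.01. Sequencing depth is unknown.

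Peaks outside 1-22, X and Y were merged at 1 bp of overlap (Python 3.11.15, pandas 2.3.3, NumPy 2.4.6, SciPy 1.17.1). The stack and background of each peak were solved from the deposited fold and the Poisson -log10 p-value. The fold was taken as the stack plus 1 divided by the background plus 1. The solver was tested on simulated data. The simulated stacks were smaller than the mitochondrial ones of the ENO1 and HDAC1 libraries, and the simulated folds higher than those of inner mitochondrial peaks. This use of the values was added after the files were seen. Values per library were compared with exact permutation tests over libraries. Mitochondrial and ribosomal genes came from RefSeq (GRCh38.p14), and the chromosomes of unlocalised sequences from knowledge of the assembly. Named were the 10 sequences with the most peaks, the 10 strongest regions of each target by the lower replicate fold, regions of 1 target in both replicates, and MT. The members and lists were chosen with earlier results of these data known. Alternatives were a q-value limit, equal list lengths, a 50% overlap, leaving out MT, and leaving out each library.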

Additional observations from a re-analysis of the deposited data

Results flagged for a closer look

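The difference in median fold outside against on the chromosomes had opposite signs between targets. It was -0.434 and -0.696 in ENO1 replicates 1 and 2. It was 0.527 and 0.597 in H4K12la, and 0.0894 and 0.0732 in HDAC1. Every ENO1 library lay below 0 and every library of the other targets above it, and the difference between targets was not itself tested. In HDAC1 the sign turned in both libraries with a -log10 q of at least 5 (-0.206 and -0.135) and with equal list lengths (-0.692 and -1.5).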

How the results depend on the processing

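Of 97 values under other settings, 79 were counted as the same. For a test this meant the same direction and the same side of the 0.05 threshold. For a count it meant within 1.5 times, and for the mitochondrial means within the SD over libraries. Many of the tests cannot pass that threshold under any setting, so for them only the direction could change. The mean difference in fold turned to -0.231 with a -log10 q of 5 or more, to -0.494 with equal numbers of strongest peaks, and to -0.0740 and -0.0879 without H4K12la replicate 1 or 2, and with -log10 q in place of fold it was 11.6 (exact two-sided permutation p = 0.03125). With equal numbers the width difference was 109 bp (exact p = 0.0625), and the ENO1 excess fell to 4.41 points for the share of peaks (exact p = 0.0667) and to 5.53 points for the share of base pairs (exact p = 0.133). Leaving out 1 library gave 104.5 to 125.1 bp for width and 1.45 to 1.56 for the log2 ratio of stacks, each at an exact p of 0.0625, the smallest 5 libraries allow, and -0.0879 to 0.171 for fold. It gave 8.64 to 10.98 points for the share of peaks, 10.7 to 13.2 for the share of base pairs, and 118 to 125 regions in all libraries. With the replicate number as a block the shares differed by 9.81 and 11.9 points (exact permutation p = 0.111 each, the smallest possible). Per target, the difference in log2 fold between replicates 1 and 2 was taken over the 117 shared regions, after each library's median was removed. These differences correlated at -0.25, 0.114 and -0.0656 for the 3 pairs of targets. Removing the median takes out any shift common to a whole library. The correlations thus cannot tell whether same-numbered libraries share more than a number, which was not tested. Leaving out a library gave no value for results that need both replicates.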

Other observations

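The nuclear genome holds copies of mitochondrial genes, inserted long ago and listed as pseudogenes. Of 474 such copies in the RefSeq table on the 24 chromosomes, 39 had a peak in any library and 2 had one in all 6. By library, 9 and 33 copies had a peak in ENO1, 2 and 7 in H4K12la, and 28 and 24 in HDAC1. As shares of the copies these were 1.90% and 6.96%, 0.422% and 1.48%, and 5.91% and 5.06%. Of 15106 other pseudogenes, 0.291% and 0.271% had a peak in ENO1, 0.53% and 0.583% in H4K12la, and 0.602% and 0.41% in HDAC1. The copies in H4K12la replicate 1 were thus at about the share of other pseudogenes, and those in the other 5 libraries above it. Neighbouring copies were counted separately, among them MTND1P23, MTND2P28 and MTCO1P12 on chromosome 1, so these are not counts of separate places. The lists on the chromosomes differ in length, from 1189 to 7568 peaks, and the difference between targets was not tested.

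A cluster of copies on chromosome 1 that includes MTND1P23 (629062-629440) and MTND2P28 (from 629640) carried peaks in every library. The peak at 629329 had 5.34-fold and 5.66-fold in ENO1, 5.35-fold in H4K12la replicate 2, and 5.65-fold and 5.45-fold in HDAC1, with no peak there in H4K12la replicate 1. As heights over the genome background these were 349 and 347, 88.8, and 361 and 449. The fold was alike where the height was not, as at the mitochondrial end peak. Reads from MT and from its nuclear copies can be hard to tell apart, and their part in these peaks was not tested.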
